A study of Rattus norvegicus with 9 samples.

Results

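The annexin family was followed through all 9 count columns of adipose-derived mesenchymal stem cells (ASCs) from 3 fat depots of the rat. The members were the genes named Anxa1, Anxa2, Anxa3, Anxa4, Anxa5, Anxa6, Anxa7, Anxa8, Anxa11, and Anxa13, which are 10 of the 35362 genes in the table. They were chosen by name and because counts of Anxa8 were close to 0 in one group and far above 0 in another, so the values of Anxa8, and the comparison of perirenal with subcutaneous cells for every member, are given as a description with no test. Of the 10 members, 9 passed the filter on low counts, and Anxa13 did not, having 0 counts in every sample.

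Subcutaneous cells (SASCs) were grown from groin fat, perirenal cells (PASCs) from fat at the kidney, and epididymal cells (EASCs) from fat at the testis of male Sprague Dawley rats that were 6 weeks old and fasted before isolation, and RNA was taken at passage 3. All groups shared digestion by collagenase type I, attachment to plastic, and a high-glucose medium with serum, and no sorting of cells is named. The table holds 3 samples in each group, whereas the methods give 6 rats and 6 wells per group, and no label ties a sample to a rat. All sample titles carry the same prefix, sd1, whose meaning is not stated, so p-values measure only the spread between these samples, which may be technical. Levels are given as CPM, a gene's count relative to the total of its sample, scaled by edgeR's TMM factor.

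Annexins are cytosolic proteins that bind acidic phospholipids when calcium rises, through a conserved core of repeats, and differ in the short tail that recruits other proteins. They are known for linking membranes to the cytoskeleton, for vesicle traffic, and for sealing torn plasma membrane. In mesenchymal cells, annexin A2 is known as the partner of S100A10 at the cell surface, where the pair binds plasminogen and its activator.

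Promoter sequences were found in RefSeq, on the rat build GRCr8, for 8 of the 10 members, without Anxa6 and Anxa13. The 250 bases upstream of the start are shown for Anxa2, Anxa3, and Anxa8, the members with the largest differences between depots, and for Anxa11, whose level differed in the opposite direction. Each is written in the direction of transcription, and capitals mark the letters of a searched motif on either strand.
Anxa2, chr8:78986002-78986251, plus strand: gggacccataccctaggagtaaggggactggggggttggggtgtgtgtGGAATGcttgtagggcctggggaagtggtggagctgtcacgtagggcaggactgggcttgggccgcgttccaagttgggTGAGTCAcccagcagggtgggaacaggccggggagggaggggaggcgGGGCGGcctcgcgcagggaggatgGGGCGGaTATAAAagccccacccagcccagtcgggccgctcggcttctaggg
Anxa3, chr14:13085598-13085847, minus strand: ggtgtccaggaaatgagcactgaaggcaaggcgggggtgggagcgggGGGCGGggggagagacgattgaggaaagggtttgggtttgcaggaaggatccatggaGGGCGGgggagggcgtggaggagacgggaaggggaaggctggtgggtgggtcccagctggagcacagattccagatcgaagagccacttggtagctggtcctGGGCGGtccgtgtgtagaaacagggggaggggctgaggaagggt
Anxa8, chr16:9403137-9403386, plus strand: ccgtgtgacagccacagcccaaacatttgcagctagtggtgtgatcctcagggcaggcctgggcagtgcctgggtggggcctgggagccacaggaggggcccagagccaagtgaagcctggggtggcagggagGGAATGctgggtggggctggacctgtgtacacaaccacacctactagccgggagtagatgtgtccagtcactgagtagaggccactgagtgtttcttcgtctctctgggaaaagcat
Anxa11, chr16:1419484-1419733, plus strand: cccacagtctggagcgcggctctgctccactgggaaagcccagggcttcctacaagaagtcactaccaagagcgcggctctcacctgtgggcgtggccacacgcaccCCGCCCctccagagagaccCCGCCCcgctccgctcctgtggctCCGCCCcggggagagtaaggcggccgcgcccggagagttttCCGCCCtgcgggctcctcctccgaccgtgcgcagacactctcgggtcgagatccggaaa
The motifs searched on both strands were the TATA box TATAAA, the GC box GGGCGG, the CCAAT box CCAAT, the AP-1 site TGANTCA, and the TEAD site GGAATG. The window of Anxa2 held a TATA box, GC boxes, an AP-1 site, and a TEAD site, that of Anxa8 held a TEAD site alone, and those of Anxa3 and Anxa11 held GC boxes alone. Among the 8 annexin windows, 2 held a TATA box, 5 a GC box, 2 a CCAAT box, 1 an AP-1 site, and 3 a TEAD site. Over 33469 rat promoters of the same length, the shares with these letters were 12.9%, 30.5%, 34.0%, 6.34%, and 12.1%. A match describes letters in the window and not a bound site.

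Samples held 17591916 to 30299032 counts, and 3 counts corresponded to 0.104 to 0.159 CPM. Genes of ribosomal RNA took 15.9% to 40.3% of the EASC counts, 22.4% to 32.9% of the PASC counts, and 10.4% to 15.5% of the SASC counts. Scaling by total counts in place of TMM moved the median log2 fold change of all genes by over 0.1, to -0.39 for EASCs against SASCs and to -0.33 for PASCs against SASCs, so differences are read relative to the median gene. The mesenchymal markers Nt5e, Thy1, Eng, Cd44, Itgb1, Pdgfra, and Pdgfrb were detected in every group, with summed levels of 4956 to 5025 CPM in EASCs, 3782 to 3958 CPM in PASCs, and 4132 to 4259 CPM in SASCs. Single markers differed more than these sums, with Pdgfra at 1542 CPM in SASCs against 278 and 235 CPM in PASCs and EASCs, and Itgb1 at 1045 CPM in SASCs against 2949.8 CPM in EASCs.

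Annexin RNA was more abundant in both visceral groups than in SASCs, and the difference was carried mainly by Anxa2. Per length of the gene model, as FPKM, the CPM divided by the length of the gene in kilobases, computed from the counts and the deposited lengths, the summed family level was 555 ± 15.9 FPKM in SASCs, 1157 ± 31.1 FPKM in PASCs, and 958 ± 40.4 FPKM in EASCs (SD, n = 3). Anxa2 made up 30.9% ± 0.676 of this sum in SASCs, 55.4% ± 1.41 in PASCs, and 51.5% ± 0.766 in EASCs (SD, n = 3). In bulk RNA, fewer cells that express a gene and less RNA per cell cannot be told apart.

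**Figure D1:**
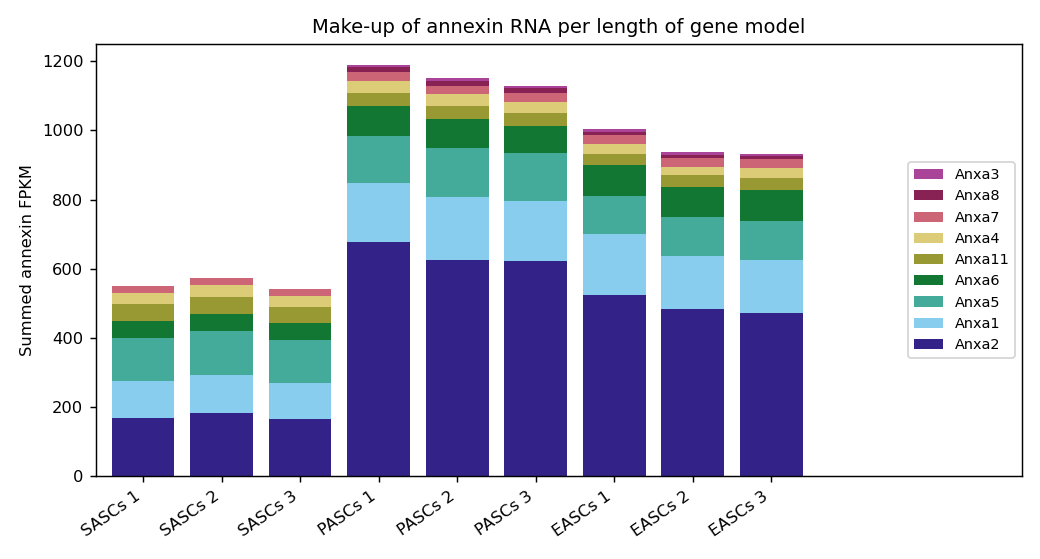
Stacked bars give the FPKM of each detected annexin in the 9 samples, with the linear vertical axis starting at 0. The bars of the SASCs reach 542 to 573 FPKM and all others at least 933 FPKM, and the Anxa2 segment at the base is the tallest in every sample.

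Anxa2 had the highest level per length in each depot. In SASCs the order ran from Anxa2 at 172 FPKM through Anxa5 at 125 FPKM and Anxa1 at 108 FPKM to Anxa6 at 49.0 FPKM and Anxa11 at 47.9 FPKM, a neighbouring pair whose samples overlapped. Anxa4 at 33.8 FPKM, Anxa7 at 19.5 FPKM, Anxa3 at 0.694 FPKM, and Anxa8 at 0.0348 FPKM followed. In PASCs, Anxa2 stood at 641 FPKM, ahead of Anxa1 at 176 FPKM and Anxa5 at 138 FPKM, so that Anxa1 and Anxa5 changed places relative to SASCs, as did Anxa3 and Anxa8. The lower PASC levels were 83.6 FPKM for Anxa6, 37.4 FPKM for Anxa11, 32.9 FPKM for Anxa4, 25.2 FPKM for Anxa7, 14.6 FPKM for Anxa8, and 7.46 FPKM for Anxa3, and no neighbours overlapped. EASCs had the same order as PASCs, from Anxa2 at 493 FPKM, Anxa1 at 160 FPKM, Anxa5 at 113 FPKM, Anxa6 at 88.8 FPKM, and Anxa11 at 32.9 FPKM to Anxa8 at 8.70 FPKM and Anxa3 at 7.28 FPKM. Between these, Anxa4 at 27.0 FPKM and Anxa7 at 26.7 FPKM overlapped in EASCs.

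Anxa8, whose protein is known from the late endosome and from epithelia, was the member that separated the depots most. Its gene spans bases 10417177 to 10432388 of chromosome 16 on the plus strand of rn6, and its promoter window is the one above with a TEAD site alone. The SASC samples numbered 1 to 3 held 3, 0, and 2 counts of Anxa8, the PASC samples 770, 751, and 513 counts, and the EASC samples 437, 389, and 366 counts. The single count-free sample allowed up to 3 counts, or 0.127 CPM. The levels were 16.8 ± 1.32 CPM in EASCs, 28.2 ± 1.15 CPM in PASCs, and 0.0673 ± 0.0584 CPM in SASCs (SD, n = 3), and none of the groups overlapped. With the counts of each group summed, 5 in SASCs, 2034 in PASCs, and 1192 in EASCs, the ratio of CPM was 413 for PASCs to SASCs (exact 95% interval 177 to 1272) and 245 for EASCs to SASCs (105 to 755), intervals that cover counting error only. The log2 fold change of EASCs against PASCs was -0.75 ± 0.0998 (SE).

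The 5 of 14769 other tested genes whose log2(CPM + 0.5) followed Anxa8 most closely over the 9 samples were Mybl2, Tubb4b, Plk1, Tacc3, and Mcm5, with Pearson's r of 0.9996, 0.9994, 0.9992, 0.9992, and 0.9991. This is a description, since the samples fall into the 3 depots and the correlation rests on the group means, and 268 genes had r above 0.99. Mybl2 ranged from 3.86 to 4.59 CPM in SASCs, from 48.7 to 49.4 CPM in PASCs, and from 35.1 to 37.4 CPM in EASCs, so that unlike Anxa8 it was not close to 0 in SASCs.

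**Figure D2:**
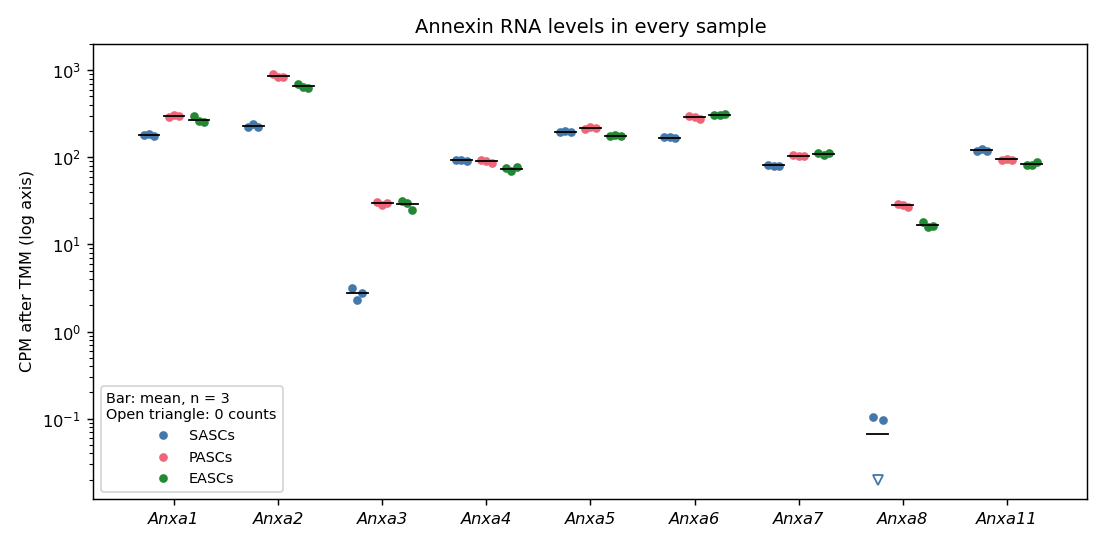
Points show CPM after TMM of the 9 detected annexins in each sample on a log axis, bars show group means (n = 3), and the open triangle marks the SASC sample with 0 counts of Anxa8. Anxa8 and Anxa3 show the widest gaps between SASCs and the other groups, and the points of Anxa4 in SASCs and PASCs overlap.

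EASCs were compared with SASCs to ask how the epididymal depot differs from the subcutaneous one, and the 8 tested members other than Anxa8 all passed the test. Anxa1, Anxa2, Anxa3, Anxa6, and Anxa7 were upregulated and Anxa4, Anxa5, and Anxa11 were downregulated in EASCs, whereas 35.5% of all 14770 genes tested were higher and 34.3% lower by the same test. At a fold change above 2, Anxa2 and Anxa3 were upregulated and 0 members were downregulated, against 13.5% and 14.2% of all genes. The median log2 fold change of the 8 members was 0.51, and that of all genes tested was 0.01. The test was edgeR's quasi-likelihood test with Benjamini-Hochberg adjustment over all genes tested. The SASC samples are the same ones that served in the choice of the members and in the comparison with PASCs.

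Anxa2 had 225, 242, and 221 CPM in the SASC samples, 907, 835, and 830.4 CPM in the PASC samples, and 701, 645, and 632 CPM in the EASC samples. The 3 groups were fully separate, with every PASC sample above every EASC sample. Group levels were 659 ± 36.7 CPM in EASCs, 858 ± 43.0 CPM in PASCs, and 229 ± 11.6 CPM in SASCs (SD, n = 3). Anxa2 was 2.87-fold higher in EASCs than in SASCs (log2 fold change 1.52 ± 0.0600, SE, adjusted p = 1.93e-18) and 3.74-fold higher in PASCs than in SASCs (1.90 ± 0.0605, no test). The gene lies on chromosome 8, bases 75687134 to 75723589, plus strand, and reads counted for its pseudogene Anxa2-ps1 numbered only 3 to 44 per sample. How reads shared by the gene and such a copy were divided is not given in the sources used here.

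Anxa3, whose protein is known from granule membranes of phagocytes, had 3.16, 2.33, and 2.78 CPM in the SASC samples, 30.4, 28.6, and 29.9 CPM in the PASC samples, and 31.8, 30.3, and 24.7 CPM in the EASC samples. All visceral samples lay about an order of magnitude above the SASC samples, while PASCs and EASCs overlapped. The increase in EASCs over SASCs was 10.4-fold (log2 fold change 3.38 ± 0.124, SE, adjusted p = 3.71e-19), and the difference of PASCs from SASCs was 10.6-fold (3.41 ± 0.124, no test). Anxa3 lies on chromosome 14, bases 14371921 to 14426507, minus strand.

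Anxa1 encodes annexin A1, known as a glucocorticoid-induced mediator that limits inflammation through formyl peptide receptors. Its levels were 182, 187, and 178 CPM in the SASC samples, 288, 309, and 294 CPM in the PASC samples, and 297, 259, and 257 CPM in the EASC samples. EASCs were above SASCs in every sample (log2 fold change 0.57 ± 0.0585, SE, adjusted p = 1.68e-09), a difference that was 0.18 and did not pass the test (adjusted p = 0.338) with total counts without TMM. PASCs were also above SASCs, by 0.71 ± 0.0585 on the log2 scale with no test. The gene lies on chromosome 1, bases 237893983 to 237921165, minus strand.

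Anxa6, whose protein has a duplicated annexin core and is known from cholesterol traffic and from the binding of a Ras GTPase-activating protein, had 171, 170.2, and 165 CPM in the SASC samples, 295, 293, and 275 CPM in the PASC samples, and 303, 303, and 311 CPM in the EASC samples. SASCs were lowest in every sample, and EASCs lay just above PASCs. The log2 fold change was 0.86 ± 0.0524 (SE, adjusted p = 3.63e-14) for EASCs against SASCs and 0.77 ± 0.0524 for PASCs against SASCs, the latter with no test. Anxa6 lies on chromosome 10, bases 40320581 to 40375605, minus strand.

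Anxa7, whose protein binds sorcin, showed the same order at smaller size, with 110.4 ± 4.14 CPM in EASCs, 104 ± 1.05 CPM in PASCs, and 80.7 ± 1.31 CPM in SASCs (SD, n = 3). Its log2 fold change was 0.45 ± 0.0541 (SE, adjusted p = 3.44e-08) for EASCs against SASCs and 0.37 ± 0.0542 for PASCs against SASCs, the latter with no test. With total counts without TMM the difference of EASCs from SASCs was 0.052 and did not pass the test (adjusted p = 0.798). Anxa7 lies on chromosome 15, bases 4252739 to 4281296, plus strand.

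Anxa11, which tethers RNA granules to lysosomes and binds the calcium sensor PDCD6, was highest in SASCs. The SASC samples had 120, 126, and 119 CPM, the PASC samples 93.9, 96.3, and 94.1 CPM, and the EASC samples 81.5, 80.9, and 87.4 CPM. The 3 groups did not overlap. The level was lower in EASCs than in SASCs (log2 fold change -0.54 ± 0.0550, SE, adjusted p = 1.35e-09), and the difference of PASCs from SASCs was -0.36 ± 0.0547 with no test. Anxa11 lies on chromosome 16, bases 3867208 to 3912403, minus strand of rn6, whereas its promoter window above is on the plus strand of GRCr8, so that the builds differ in its orientation. The gene shares sequence positions with Erc2, which had at most 20 counts in any sample.

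Anxa4, known from epithelial membranes, was at 73.5 ± 3.95 CPM in EASCs, 89.6 ± 3.63 CPM in PASCs, and 92.0 ± 0.946 CPM in SASCs (SD, n = 3). The samples of SASCs and PASCs overlapped (log2 fold change -0.04 ± 0.0571, SE, no test), and EASCs were lower than SASCs by a log2 fold change of -0.32 ± 0.0576 (adjusted p = 1.73e-05). Anxa5, whose protein binds exposed phosphatidylserine and serves as a probe of apoptotic cells, was at 178 ± 1.75 CPM in EASCs, 217 ± 3.55 CPM in PASCs, and 197 ± 4.15 CPM in SASCs (SD, n = 3). Its decrease in EASCs against SASCs was the smallest change among the 8 tested members with TMM (log2 fold change -0.15 ± 0.0504, SE, adjusted p = 0.0105), and without the SASC sample numbered 2 it was -0.13 and missed the threshold (adjusted p = 0.0502). With total counts without TMM it was -0.54. In PASCs against SASCs, Anxa5 differed by 0.14 ± 0.0502 on the log2 scale with no test, and this turned to -0.18 with total counts without TMM, beside a median over all genes of -0.33. Anxa4 lies on chromosome 4, bases 118538771 to 118595601, and Anxa5 on chromosome 2, bases 123162477 to 123193178, both on the minus strand.

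For PASCs against SASCs, Anxa2 and Anxa3 were the 2 of these 8 members with a fold above 2, both higher, beside 12.4% of all tested genes higher and 15.5% lower at that fold. The members were chosen on this comparison, so their count is not read against that background.

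**Figure D3:**
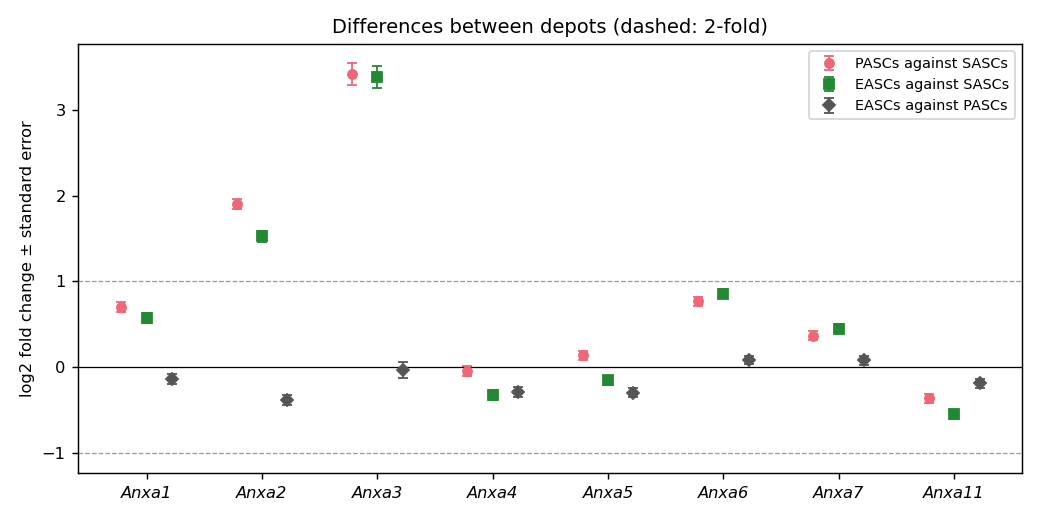
Points give the log2 fold change of 8 annexins in each comparison with its standard error, and dashed lines mark a fold of 2. Anxa2 and Anxa3 lie above the upper line in both comparisons with SASCs, which share the SASC samples, and no point of EASCs against PASCs reaches a line. With total counts without TMM, the positive point of Anxa5 for PASCs against SASCs turns negative.

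The visceral depots were compared directly with each other, which showed smaller differences. Among the 8 tested members other than Anxa8, Anxa2, Anxa4, Anxa5, and Anxa11 were lower in EASCs than in PASCs and 0 were higher, whereas 16.1% of all genes tested were higher and 14.5% lower. The median log2 fold change of the 8 members was -0.16, and that of all genes was -0.01. The decreases were -0.38 ± 0.0583 for Anxa2 (adjusted p = 8.71e-06), -0.29 ± 0.0577 for Anxa4 (adjusted p = 3.02e-04), -0.29 ± 0.0504 for Anxa5 (adjusted p = 4.53e-05), and -0.19 ± 0.0554 for Anxa11 (adjusted p = 0.0108). With total counts without TMM only the decrease of Anxa2 passed the test. The call for Anxa11 was lost without the PASC sample numbered 2 (adjusted p = 0.0525) or the EASC sample numbered 2 (adjusted p = 0.0640). Anxa1 did not pass the test (-0.13 ± 0.0579, adjusted p = 0.0847), but did without the EASC sample numbered 1 (-0.20, adjusted p = 0.0114). The values were 0.09 ± 0.0517 for Anxa6 (adjusted p = 0.227), 0.08 ± 0.0536 for Anxa7 (adjusted p = 0.277), and -0.03 ± 0.0937 for Anxa3 (adjusted p = 0.834), none past the test.

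The other annexin genes of the table, Anxa9 and Anxa10, contributed little. Anxa9 had 1 to 13 counts per sample and a log2 fold change of -0.43 ± 0.677 (SE, adjusted p = 0.575) for EASCs against SASCs, and Anxa10, like Anxa13, had 0 counts in all 9 samples.

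Of 15 genes listed as partners and receptors of annexins, 14 were in the table and 8 were tested. For EASCs against SASCs 3 were upregulated, 1 was downregulated, and 4 did not pass the test, and for EASCs against PASCs 4 were downregulated and 0 upregulated. Over all genes tested, 35.5% were higher and 34.3% lower in EASCs than in SASCs, and 16.1% were higher and 14.5% lower than in PASCs. S100a10, which encodes the light chain bound by annexin A2, had 71.6, 77.0, and 69.0 CPM in the SASC samples, 235, 219, and 213 CPM in the PASC samples, and 272, 239, and 232 CPM in the EASC samples. It was upregulated in EASCs against SASCs (log2 fold change 1.77 ± 0.0644, SE, adjusted p = 3.22e-19) and did not pass the test against PASCs (0.15, adjusted p = 0.0605). S100a11, whose protein binds annexin A1, was upregulated in EASCs against SASCs (1.63, adjusted p = 1.55e-19), with 635 ± 22.8 against 205 ± 8.24 CPM, and stood at 627 ± 31.1 CPM among PASCs (SD, n = 3). S100a6, which encodes another S100 ligand of annexin A2, was upregulated in EASCs against SASCs (1.43, adjusted p = 3.78e-15) and downregulated against PASCs (-0.40, adjusted p = 1.61e-04). Ahnak, a giant scaffold that joins the annexin A2 complex, was lower in EASCs than in SASCs (-0.25, adjusted p = 7.21e-04) and than in PASCs (-0.32, adjusted p = 1.75e-04).

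S100a4, whose product also binds annexin A2, had a log2 fold change of -0.03 for EASCs against SASCs (adjusted p = 0.691) and fell against PASCs (-0.88, adjusted p = 1.68e-10). Pdcd6 and Sri, the calcium sensors that bind annexins A11 and A7, had log2 fold changes of -0.09 (adjusted p = 0.228) and -0.07 (adjusted p = 0.322) for EASCs against SASCs. The receptors of annexin A1 were at or near 0. Fpr1 had 2 counts summed over SASCs, 0 over PASCs, and 11 over EASCs, 10 of them in 1 sample, and Fpr2, Fpr3, Fpr-rs3, Fpr-rs4, and Fpr-rs6 had 0 counts in every sample.

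**Figure D4:**
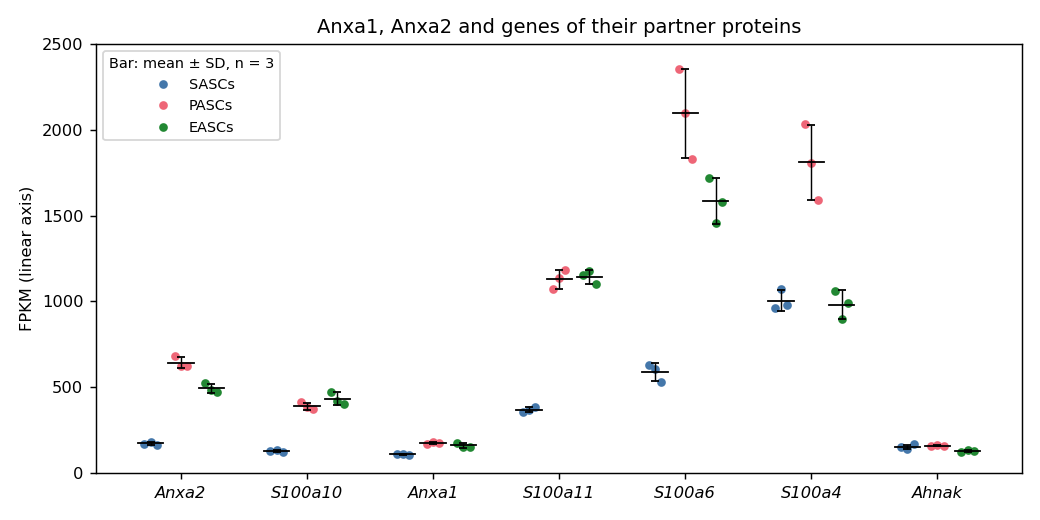
Points give FPKM on a linear axis for Anxa2, Anxa1, and genes of their protein partners in each sample, with bars for the mean ± SD (n = 3). Anxa2, S100a10, S100a11, and S100a6 lie higher in PASCs and EASCs than in SASCs, and S100a4 lies higher in PASCs than in the other groups.

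Of 19 genes listed for plasma membrane repair, a process in which annexins cap the wound, 18 were in the table and 17 were tested. In EASCs against SASCs 9 were upregulated, 4 were downregulated, and 4 did not pass the test, with a median log2 fold change of 0.33, beside 35.5% of all genes higher, 34.3% lower, and a median of 0.01. Besides S100a10 and S100a11, the members with the largest changes were Syt7, a calcium sensor of lysosome exocytosis (1.84, adjusted p = 9.51e-05), Dysf, the dysferlin gene (1.15, adjusted p = 2.56e-14), and Ahnak2 (-0.72, adjusted p = 5.47e-10). Dysf had mean levels of 59.3 CPM in EASCs, 75.2 CPM in PASCs, and 26.8 CPM in SASCs. Syt7 was low in all groups, with means of 2.03 CPM in EASCs, 1.34 CPM in PASCs, and 0.564 CPM in SASCs. Its counts were 8 to 20 per SASC sample and 39 to 58 per EASC sample. Against PASCs, 1 gene was upregulated, 4 were downregulated, and 12 did not pass the test, beside 16.1% of all genes higher and 14.5% lower.

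Of 10 genes listed for plasminogen activation, 8 were tested, and in EASCs against SASCs 4 were upregulated, 2 were downregulated, and 2 did not pass the test, with a median log2 fold change of 0.08, where 35.5% of all genes were higher and 34.3% lower. Plau, the urokinase gene, averaged 18.5 CPM in EASCs, 10.6 CPM in PASCs, and 76.7 CPM in SASCs and was downregulated in EASCs (-2.05, adjusted p = 3.50e-18). Plaur, its receptor, averaged 12.2, 31.7, and 40.9 CPM in SASCs, PASCs, and EASCs and was upregulated (1.75, adjusted p = 1.06e-14), as was, at smaller size, the plasminogen receptor gene Plgrkt (0.27, adjusted p = 0.0462). Whether the small change of Plgrkt holds with total counts without TMM was not examined. That scaling moved the median of all genes to -0.39. Plat, the tissue activator that binds the annexin A2 complex, differed between EASCs and PASCs (1.63, adjusted p = 1.18e-15), at 43.0 against 13.9 CPM, and had a log2 fold change of -0.11 against SASCs (adjusted p = 0.170). Against PASCs, 5 genes of this list were upregulated and 1 was downregulated, where 16.1% of all genes were higher and 14.5% lower.

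Summed mesothelial and leukocyte markers were, like summed annexin RNA, higher in PASCs and EASCs than in SASCs, whereas summed endothelial markers were lower. The 12 mesothelial markers summed to 193 to 207 CPM in EASCs, 228 to 229.6 CPM in PASCs, and 21.7 to 23.5 CPM in SASCs, with 12 of them detected in EASCs, 11 in PASCs, and 10 in SASCs, and 9 passed the filter on low counts. That filter was passed by Krt18 through the visceral groups alone, so no count of calls is given. Krt7 averaged 1.76, 126, and 61.8 CPM and Wt1 averaged 1.91, 36.0, and 53.7 CPM in SASCs, PASCs, and EASCs, while Krt18 and Muc16 had 0 counts in SASCs and Krt19 had 0 counts in PASCs. The 9 leukocyte markers of the table summed to 142 to 154 CPM in EASCs, 93.4 to 95.3 CPM in PASCs, and 26.4 to 32.8 CPM in SASCs, with Lyz2 the most abundant in PASCs and EASCs, Cd68 in SASCs, and Cd3e at 0 in every sample. The 5 epithelial markers summed to 1.38 to 1.56 CPM in EASCs, 1.41 to 2.38 CPM in PASCs, and 0.0488 to 0.297 CPM in SASCs. The most abundant was Krt14 in PASCs, at 1.49 CPM, Epcam in EASCs, at 0.647 CPM, and Cdh1 in SASCs, at 0.0772 CPM. Krt14 had 0 counts in SASCs, and Cdh1 had 0 counts in EASCs. The 6 endothelial markers summed to 29.4 to 32.4 CPM in EASCs, 11.5 to 14.4 CPM in PASCs, and 41.8 to 44.3 CPM in SASCs, but its members differed in direction. Kdr averaged 18.1, 1.66, and 3.75 CPM and Tek 2.55, 8.29, and 8.07 CPM in SASCs, PASCs, and EASCs. The part of these cell types, and of the ribosomal RNA share, in the annexin differences was not tested.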

How the data were processed

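RNA of SASCs, PASCs, and EASCs was measured by paired-end sequencing. The authors trimmed the reads and mapped them with TopHat, and the deposited values are raw counts per gene for each sample. The methods name the build rn6 and the submitters' processing notes rn5. Gene positions and lengths are those of the table, whose coordinates fit rn6. The counting tool, strand, and handling of shared reads are not given in the sources used here.

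Samples were grouped by their labels. Counts were normalized by TMM and filtered with filterByExpr in edgeR 4.0.16 (R 4.3.3), which left 14770 of 35362 genes. All 9 samples were fitted in 1 model of the 3 groups with the quasi-likelihood test and Benjamini-Hochberg adjustment over all genes tested, at an adjusted p of 0.05, and for DEGs also a fold above 2. The common biological coefficient of variation was 0.0685. Total counts of 17591916 to 30299032 set a floor of 3 counts at 0.104 to 0.159 CPM. The fit was also run on simulated counts with few changed genes, which did not model the ribosomal RNA shares of the groups. That run therefore could not check the TMM scaling of these data. Alternatives were DESeq2 1.42.0, total counts without TMM, no filter, removal of rRNA genes, only the samples compared, a replicate block, counts without length, and leaving out each sample. Their values were read for the members only and not for the genes of the other lists.

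The members and gene lists were chosen with earlier results of these data known. Named were all members, the other annexins, direct partners, the 5 largest changes per list past the test without overlap, the highest and absent markers, and the 5 genes most like Anxa8. Tek, Kdr, Pdgfra, and Itgb1 were named after their values were seen. One listed gene is left out of the text. Promoters came from RefSeq (GRCr8).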

Additional observations from a re-analysis of the deposited data

Results flagged for a closer look

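The tested difference between EASCs and PASCs singled out 4 members whose difference from SASCs was not the same in the visceral depots. These were Anxa2, with a log2 fold change of -0.38 for EASCs against PASCs, Anxa5 with -0.292, Anxa4 with -0.286, and Anxa11 with -0.187. Anxa2 was above SASCs in both depots and higher in PASCs, and Anxa11 was below SASCs in both and lower in EASCs. Anxa4 overlapped SASCs in PASCs and lay below them in EASCs. Anxa5 lay above SASCs in PASCs and below them in EASCs. With total counts without TMM its value in PASCs was -0.18, beside a median over all genes of -0.33. Under the same scaling, only Anxa2 kept its call between EASCs and PASCs. The call for Anxa11 was also lost when either of 2 samples was left out.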

How the results depend on the processing

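Under the alternatives, 437 values of the members kept their direction and their side of the threshold or, where untested, moved by no more than the spread. These include counts of calls that were equal or changed by a small factor. With each sample left out, the members downregulated in EASCs numbered 3 to 5 against PASCs and 2 to 3 against SASCs. Another 20 untested values or counts moved by more, 8 lost a call, 1 gained one, and 2 changed sign. DESeq2, no filter, removal of rRNA genes, and fitting only the groups compared changed no call of a member, nor did the replicate block, under which Anxa2 in EASCs against SASCs was 1.52. The replicate numbers did not pair the samples, since deviations of same-numbered samples correlated between -0.0252 and 0.059, and 2 of 9 samples correlated best with their own number in both other groups. Total counts without TMM had the most effect. For EASCs against SASCs it gave 0.18 for Anxa1, 0.052 for Anxa7, and 7.45 for Anxa8 and left 3 members upregulated, and it moved values whose calls held, to 0.46 for Anxa6, -0.73 for Anxa4, -0.54 for Anxa5, and -0.95 for Anxa11. For EASCs against PASCs it gave -0.36 for Anxa4, -0.36 for Anxa5, and -0.26 for Anxa11 and left 1 downregulated. For PASCs against SASCs it gave 0.38 for Anxa1, 1.58 for Anxa2, 3.10 for Anxa3, -0.36 for Anxa4, 0.45 for Anxa6, 0.047 for Anxa7, 8.27 for Anxa8, and -0.68 for Anxa11, and turned Anxa5 to -0.18, beside a median over all genes of -0.33. The cause was not tested. Without division by length, Anxa2 took 21.3%, 42.7%, and 38.2% of annexin counts in SASCs, PASCs, and EASCs. With each sample left out in turn, the log2 fold change for EASCs against SASCs ranged from 7.30 to 8.37 for Anxa8 and from -0.16 to -0.13 for Anxa5. For PASCs against SASCs, Anxa8 ranged from 8.05 to 9.12, values that depend on 5 SASC counts. For EASCs against PASCs the ranges were -0.20 to -0.092 for Anxa1, -0.22 to -0.17 for Anxa11, and -0.11 to 0.073 for Anxa3, positive without the EASC sample numbered 3. Levels near the floor, as Anxa8 in SASCs, are limited by depth.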
